A study of Rattus norvegicus with 19 samples.

Results

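The comparison described here sets 4 arrays of adult Leydig cells against 3 arrays of progenitor Leydig cells, all from rats of the Sprague-Dawley strain. These 7 arrays were chosen by the names the submitters gave them, and they are 7 of the 19 arrays of the series. The other arrays hold stem (5), immature (4) and bone stem (3) cells, which enter here only through the shared estimate of the spread and as side values. Neither group carries a stated treatment or genetic change. The sources used here do not give age, sort, culture or purity of the cells, so stage and these factors cannot be told apart. The labels are silent on whether replicates are separate animals. A p-value therefore reflects the scatter between replicate arrays, pooled over all groups of the series, which may be technical.

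Leydig cells lie between the seminiferous tubules of the testis and make testosterone from cholesterol when luteinizing hormone binds its receptor. In the postnatal testis, spindle-shaped progenitors that still divide turn into immature and then adult cells, which divide rarely and hold abundant smooth endoplasmic reticulum and lipid. In the rat, progenitor and immature cells are known for releasing 5-alpha-reduced androgens, and adult cells for releasing testosterone itself.

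Each array gave 1 signal per probe set, a scaled brightness on a linear scale with no absolute unit, so levels of different genes are not compared. Differences were tested on log2(signal + 16), which understates the change of dim genes, and a gene was called at an adjusted p under 0.05. Of 14217 genes, 4763 (33.5%) were called, 1979 (13.9%) higher and 2784 (19.6%) lower in adult cells. Among the 31042 probe sets, 7577 (24.4%) were called, 2996 (9.65%) higher and 4581 (14.8%) lower. This split depended on scaling: 39.5% of the called probe sets were higher in adult cells with the signals as deposited, 49.8% after quantile normalization and 62.8% after centring each array on its median. The median log2 change of all probe sets was -0.055 as deposited, 0.01 after quantile normalization and 0.122 after centring, so small changes are read against that shift. Signals of adult and progenitor arrays did not overlap for 5923 genes (41.7%). The mean of the immature arrays lay between the adult and progenitor means for 1667 of the 1979 higher genes and 2300 of the 2784 lower genes.

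Progenitor replicate 3 stood apart from the other 2 progenitor arrays. For beta-actin, the 3' probe set gave 6.35 times the signal of the 5' one, with 1.51 to 2.29 on the adult arrays and 1.29 to 1.5 on the other progenitor arrays. For Gapdh the ratio was 1.86, with 1.09 to 1.32 on the adult arrays and 1.06 to 1.09 on the other progenitor arrays. Across probe sets the mean correlation of an array with its own group was 0.976 to 0.984 for adult and 0.961 to 0.974 for progenitor arrays, and 0.903 to 0.921 between the groups. Without replicate 3, 2717 probe sets were called higher and 3993 lower. Of 157 named genes called, 22 lost the call when 1 array was left out or the scaling, pseudocount, spread or probe set choice was changed: Cd163, Clu, Cyp7b1, Dusp6, Esr1, Fasn, Gclm, Hsd17b12, Inhba, Ldha, Myl9, Nr1h4, Nr4a1, Nr4a2, Nr5a1, Odf2, Pnliprp2, Por, Prdx4, Scarb1, Slc22a18 and Svs6. Of these, progenitor replicate 3 ended the call of Esr1, Fasn, Hsd17b12, Myl9, Nr1h4, Nr4a1, Nr4a2, Cyp7b1, Pnliprp2 and Svs6 when it was left out.

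The cell identity given in the labels was set against marker lists. Of the 8 Leydig markers, 7 averaged 767 or more in both groups and Hsd17b3 was low in progenitor cells (52.5 ± 20.1, SD). The list had a summed signal of 21318 to 32220 in adult and 14366 to 22449 in progenitor arrays, which overlap. Markers of other cells moved with the comparison. Of 23 measured germ cell markers, 15 were higher (65.2%) and 2 lower (8.7%) in adult cells, against 13.9% and 19.6% of all genes. Their summed signal was 2527 to 6466 in adult and 592 to 891 in progenitor arrays. Of 29 leukocyte markers, 2 were higher (6.9%) and 14 lower (48.3%), against the same shares of all genes. Their sums were 2033 to 5084 in adult and 10165 to 12478 in progenitor arrays. Of 12 erythroid and bone marrow markers, 7 were lower (58.3%, against 19.6% of all genes) and none higher. Their sums were 1058 to 1534 in adult and 4226 to 5977 in progenitor arrays. Sums overlapped for Sertoli markers (2859 to 3957 in adult, 2941 to 3211 in progenitor arrays), endothelial markers (960 to 4183 and 1778 to 3077 in the same order) and smooth muscle markers (2366 to 5121 and 4315 to 4679). In bulk RNA, fewer cells of a type and less RNA per cell cannot be told apart. The part of these cells in the changes below was not tested unless a value is given.

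**Figure D1:**
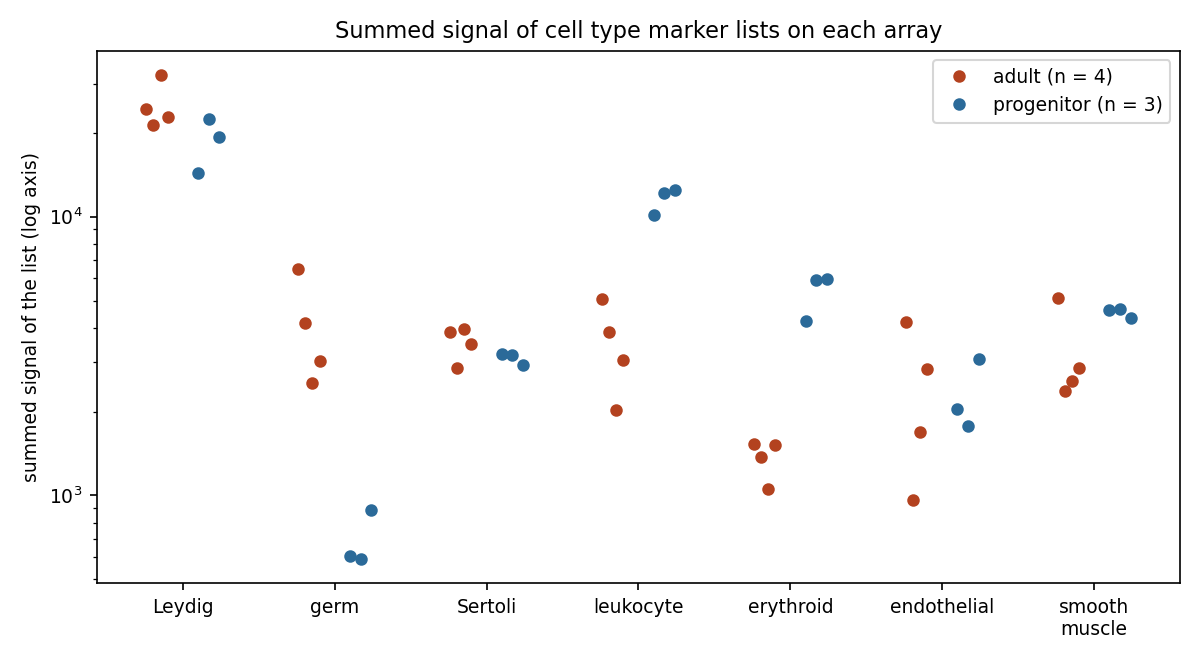
Summed signal (log axis) of each marker list on each array, adult arrays left of progenitor arrays in each pair of columns, 1 point per array. Germ cell sums are 2527 to 6466 in adult and 592 to 891 in progenitor arrays, leukocyte sums 2033 to 5084 and 10165 to 12478, and Leydig marker sums overlap.

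The machinery of testosterone synthesis changed at its ends more than in its middle. Hsd17b3, the enzyme that converts androstenedione to testosterone, had signals of 576.5, 837.8, 628.6 and 489.9 in adult cells, against 46.7, 35.83 and 74.84 in progenitor cells. Every adult array lay far above every progenitor array, and the log2 change was 3.26 ± 0.23 (SE; adjusted p = 2.73e-09). Tspo, an outer mitochondrial membrane protein that binds cholesterol, had 2808, 2755, 3665 and 2788 in adult cells, against 419.2, 355.9 and 548.2 in progenitor cells. Its groups did not overlap either (log2 change 2.73 ± 0.26, adjusted p = 1.54e-07). Cyp11a1, which cleaves the cholesterol side chain in the first enzymatic step, averaged 4206 ± 914 in adult and 2302 ± 412 in progenitor cells (SD, n = 4 and 3; log2 change 0.86 ± 0.17, adjusted p = 0.000872).

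The middle steps were at like signals. Hsd3b1, which turns pregnenolone into progesterone, had 3714, 2950, 5493 and 3469 in adult cells, against 2586, 4546 and 4527 in progenitor cells, and the groups overlapped (log2 change 0.01 ± 0.33, adjusted p = 0.985). Cyp17a1, the 17-hydroxylase and lyase that leads to androgens, had 5299, 4472, 7277 and 4883 in adult cells, against 3578, 6284 and 5519 in progenitor cells (log2 change 0.11 ± 0.24, adjusted p = 0.824). For both genes the sign turned when single arrays were left out, and for Hsd3b1 also after quantile normalization. A p that misses the threshold does not show that their levels are equal.

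Star, which delivers cholesterol to the inner mitochondrial membrane, had 3101, 2668, 3952 and 2883 in adult cells, against 1079, 1449 and 580.1 in progenitor cells. The groups did not overlap, but the call depended on the settings. The log2 change of 1.67 ± 0.67 missed the threshold in the fit of all arrays (adjusted p = 0.0769) and passed it in the fit of the 7 arrays alone (adjusted p = 0.00167), after median centring (adjusted p = 0.036) and with a pseudocount of 64 (adjusted p = 0.0312). In stem Leydig cells, which share in the first fit, Star averaged 740 ± 480 (SD, n = 5). Of the 10 measured members of the testosterone list, 4 rose, namely Hsd17b3, Tspo, Cyp11a1 and the mitochondrial cytochrome b5 gene Cyb5b (0.83 ± 0.18). The 1 that fell was Por, the electron donor of microsomal cytochrome P450 enzymes, at 331 ± 31.5 in adult and 482 ± 66 in progenitor cells (SD; log2 change -0.52 ± 0.16, adjusted p = 0.021). That call was lost after median centring. Of the list, 40% rose and 10% fell, against 13.9% and 19.6% of all genes. The list's median log2 change was 0.58, against -0.06 over all genes.

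**Figure D2:**
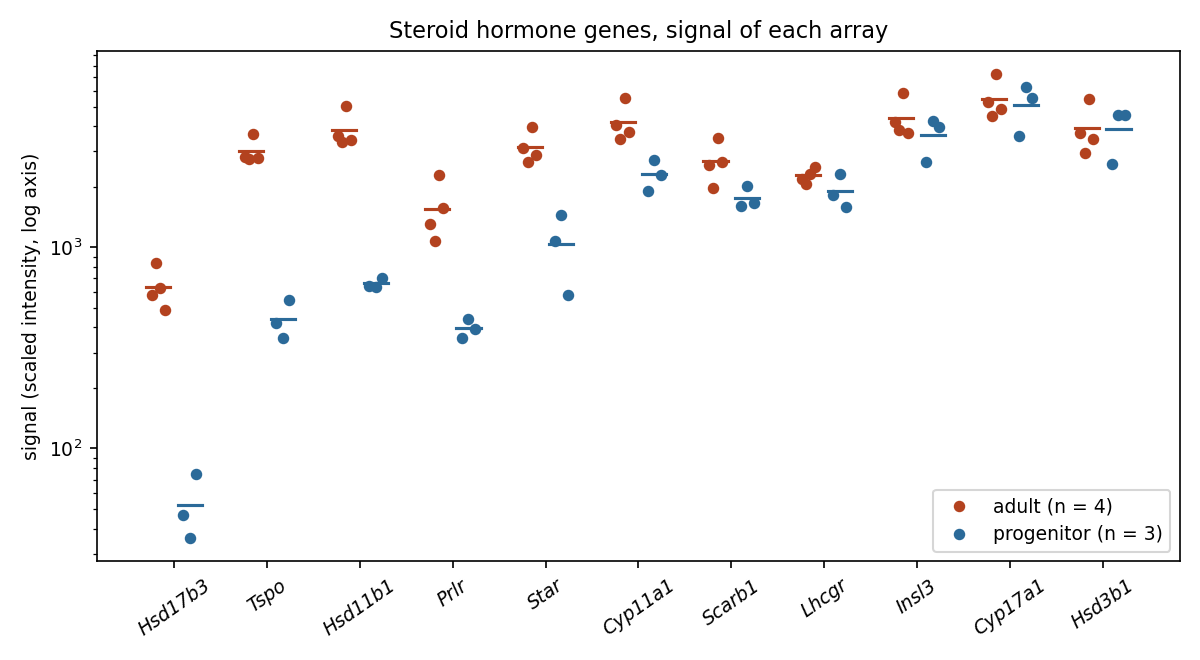
Signal (log axis) of 11 steroid hormone genes on each array, adult arrays left of progenitor arrays for each gene, points for arrays and a bar for the group mean. Hsd17b3 sits at 489.9 to 837.8 in adult and 35.83 to 74.84 in progenitor arrays, and Cyp17a1 and Hsd3b1 overlap.

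Enzymes that handle glucocorticoids and sulfated steroids were higher in adult cells. Hsd11b1, which interconverts active and inactive glucocorticoid, had 3571, 3338, 5016 and 3408 in adult cells, against 645.2, 634.2 and 703.5 in progenitor cells (log2 change 2.49 ± 0.32, adjusted p = 5.41e-06). H6pd makes the NADPH that Hsd11b1 uses inside the endoplasmic reticulum, and its signal was 234 ± 40.6 in adult and 75.4 ± 20.1 in progenitor cells (SD; log2 change 1.46 ± 0.17). Fkbp5, a chaperone cofactor gene known to be induced by glucocorticoids, had 600.1, 611.6, 571.2 and 595.2 in adult cells, against 86.75, 89.43 and 112 in progenitor cells. Its adult arrays were close together and all far above the progenitor arrays (2.45 ± 0.17, adjusted p = 1.8e-09). Nr3c2, the mineralocorticoid receptor gene, rose by 1.12 ± 0.17, and Sts, the steroid sulfatase, by 1.66 ± 0.19.

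Of 22 measured genes of androgen and glucocorticoid metabolism, 10 rose (45.5%) and 2 fell (9.1%), against 13.9% and 19.6% of all genes. The 2 that fell were Srd5a3 (-0.71 ± 0.12), a 5-alpha-reductase family member best known for dolichol synthesis, and Hsd17b12 (-0.46 ± 0.15), a fatty acid elongation enzyme. Akr1c14, which reduces 5-alpha-reduced androgens, had 115.5, 111.2, 74.45 and 142.2 in adult cells, against 313, 297.7 and 93.23 in progenitor cells. Progenitor replicate 3 lay among the adult arrays, the log2 change of -0.85 ± 0.31 missed the threshold (adjusted p = 0.0509), and without that replicate it was called (adjusted p = 0.000512), as it was with a pseudocount of 64 or the replicate block (adjusted p = 0.0283 and 0.0218).

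Receptors for luteinizing hormone and the Leydig hormone Insl3 were not called. Lhcgr, the luteinizing hormone receptor gene, averaged 2277 ± 189 in adult and 1910 ± 380 in progenitor cells (SD; log2 change 0.27 ± 0.15, adjusted p = 0.23; the sign turned after quantile normalization). Insl3, the hormone that guides testis descent, averaged 4407 ± 1007 and 3630 ± 853 in the same order (0.28 ± 0.27, adjusted p = 0.536). Other receptors rose. Prlr, the prolactin receptor gene, had 1300, 1080, 2289 and 1562 in adult cells, against 352.6, 441 and 393.1 in progenitor cells, with no overlap (1.88 ± 0.33, adjusted p = 0.000217). Ghr, the growth hormone receptor gene, rose by 1.78 ± 0.24, the insulin receptor gene Insr by 1.29 ± 0.17 and the estrogen receptor gene Esr1 by 0.83 ± 0.24.

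Among nuclear regulators, Nr5a1, a main activator of steroid genes, averaged 1080 ± 53.4 in adult and 767 ± 71.1 in progenitor cells (SD; log2 change 0.49 ± 0.13, adjusted p = 0.00616), a call that was lost after quantile normalization and with a pseudocount of 1. Nr0b1, a repressor partner of Nr5a1, rose by 1.33 ± 0.15. Of the 26 measured receptors and regulators 6 rose (23.1%) and 4 fell (15.4%), against 13.9% and 19.6% of all genes. The 4 that fell were the orphan receptor gene Nr4a1 (-1.33 ± 0.39), the activin subunit genes Inhba (-1.59 ± 0.34) and Inhbb (-1.25 ± 0.26), and the dim bile acid receptor gene Nr1h4 (-0.30 ± 0.11). Kit was not called (adjusted p = 0.814). Of 30 measured cAMP signalling genes 3 rose (10%) and 6 fell (20%), near the shares of all genes (13.9% and 19.6%). Akap12, a scaffold that holds protein kinase A, had 393 ± 31.1 in adult and 1090 ± 80.3 in progenitor cells (SD; -1.44 ± 0.20). Rgs2, which damps G-protein signalling, fell by 1.31 ± 0.25, the phosphodiesterase gene Pde1c by 1.27 ± 0.23, and the cAMP-gated exchange factor gene Rapgef4 rose by 1.34 ± 0.21.

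Cholesterol storage and transport genes rose, and genes of cholesterol synthesis were split. Apoc1, an apolipoprotein of cholesterol-carrying particles, had 496.9, 274.7, 734.7 and 770.9 in adult cells, against 17.27, 16.36 and 22.12 in progenitor cells (3.98 ± 0.26, adjusted p = 1.35e-09). Cidea, a lipid droplet protein, averaged 144 ± 55.7 in adult and 17.1 ± 3.1 in progenitor cells (SD; 2.22 ± 0.24). Abcg1, which exports cholesterol, rose by 1.33 ± 0.19, Apoe by 1.20 ± 0.23 and the lysosomal cholesterol carrier gene Npc2 by 0.69 ± 0.17. Of 24 measured members of that list 12 rose (50%) and none fell, against 13.9% and 19.6% of all genes. The median log2 change was 0.56, and the counts were 12 and 0 after quantile normalization and 14 and 0 after median centring.

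Among 23 genes that make or take up cholesterol, 5 rose and 5 fell (21.7% each, against 13.9% and 19.6% of all genes). Those that rose include Insig1 (1.01 ± 0.19), an endoplasmic reticulum sensor that retains the sterol regulators, Srebf1 (0.86 ± 0.14), the sterol reductase gene Tm7sf2 (0.74 ± 0.18) and the lipoprotein receptor gene Scarb1 (0.58 ± 0.16, adjusted p = 0.0109, but 0.0538 in the fit of the 7 arrays alone). After quantile normalization 3 rose and 5 fell, and Scarb1 was not called (adjusted p = 0.176). After median centring the counts were 6 and 0. The split thus depended on scaling, and no fall in this list held across scalings.

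Oxidation of fatty acids was the metabolic group with the most members higher in adult cells. Cpt2, which releases fatty acids from carnitine inside mitochondria, had 1076, 1047, 1248 and 1199 in adult cells, against 261, 311.9 and 198.3 in progenitor cells (2.10 ± 0.18, adjusted p = 3.72e-08). Pex11a, a peroxisome division gene, had 539.6, 467.9, 595.2 and 614.4 in adult cells, against 76.36, 102.4 and 122.4 in progenitor cells (2.31 ± 0.21). Neither gene had overlapping groups. Ehhadh, the peroxisomal bifunctional enzyme, was at 87.2 ± 26.3 in adult cells and dim in progenitor cells, at 5.66 ± 3.75 (SD; 2.23 ± 0.20). Of 45 measured genes 30 rose (66.7%, against 13.9% of all genes). The 1 that fell (2.2%, against 19.6%) was Amacr (-0.80 ± 0.14), which feeds branched fatty acids to peroxisomal oxidation. The median log2 change was 0.68, and the counts were 30 and 1 after quantile normalization and 33 and 1 after median centring.

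Fewer respiratory chain genes were called. Of 38 measured subunits 9 rose (23.7%, against 13.9% of all genes) and none fell, at a median log2 change of 0.21. After quantile normalization 4 rose and 3 fell. Ndufs3, a complex I subunit, averaged 1374 ± 71.4 in adult and 790 ± 89.6 in progenitor cells (SD; 0.79 ± 0.12). The complex II subunits Sdha (0.56 ± 0.11) and Sdhc (0.62 ± 0.13) were also called.

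In glycolysis, the citrate cycle and NADPH supply 18 of 38 rose (47.4%) and 4 fell (10.5%), against 13.9% and 19.6% of all genes. Aldoc, the aldolase isozyme of brain, had 1796, 1808, 2099 and 1746 in adult cells, against 155.4, 206.3 and 175.6 in progenitor cells (3.27 ± 0.20, adjusted p = 4.55e-10). The kinases that switch off pyruvate dehydrogenase rose too, Pdk4 by 2.35 ± 0.20 and Pdk2 by 1.88 ± 0.16. Ldha, the lactate-forming dehydrogenase subunit, fell (1142 ± 72 in adult and 1701 ± 285 in progenitor cells, SD; -0.56 ± 0.18), as did the fatty acid synthase gene Fasn (-0.74 ± 0.20). The calls for Ldha and Fasn are smaller than 1 on the log2 scale. Gpd1, which shuttles glycerol phosphate, was among the largest rises, at 1148, 958.8, 1119 and 1146 in adult cells, against 28.02, 34.8 and 34.94 in progenitor cells (4.51 ± 0.36).

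Detoxifying enzymes were higher in adult cells as well. Mgst2, a membrane glutathione transferase, had 1346, 1343, 1462 and 1407 in adult cells, against 198.5, 161.2 and 197.3 in progenitor cells (2.81 ± 0.14, adjusted p = 2.79e-11). Hmox1, which breaks down heme, averaged 477 ± 84.5 in adult and 106 ± 12.9 in progenitor cells (SD; 2.0 ± 0.18), the catalase gene Cat 1409 ± 406 and 440 ± 70.2 (1.61 ± 0.18), and Gstk1 rose by 1.78 ± 0.16. Of 49 measured glutathione and antioxidant enzymes 26 rose (53.1%) and 3 fell (6.1%), against 13.9% and 19.6% of all genes. The 3 were Gclm (-0.71 ± 0.18), a subunit of the enzyme that starts glutathione synthesis, and the endoplasmic reticulum peroxidases Gpx7 (-1.33 ± 0.17) and Prdx4 (-0.52 ± 0.13). Cytochrome P450 genes outside testosterone synthesis gave some of the steepest rises. Cyp2a1, a steroid 7-alpha-hydroxylase, had 857.8, 473.6, 1190 and 956.5 in adult cells, against 12.11, 11.25 and 15.78 in progenitor cells (4.86 ± 0.26, adjusted p = 1.06e-10). Cyp2a3 had 651.4, 715.8, 864.1 and 720.5 in adult cells, against 10.04, 16.83 and 17.67 in progenitor cells (4.61 ± 0.21).

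Cyp4f4, an omega-hydroxylase of leukotrienes, rose by 4.78 ± 0.30 and Cyp2e1 by 3.10 ± 0.15. Cyp2a1 and Cyp2a3 belong to 1 subfamily, and whether probe sets of related P450 or glutathione transferase genes share signal was not tested. Of 37 measured P450 genes 12 rose (32.4%) and 3 fell (8.1%), against 13.9% and 19.6% of all genes. The list's median was only 0.06. The 3 that fell were Cyp26b1, which destroys retinoic acid, Cyp2d4 (-1.38 ± 0.19) and the dim Cyp7b1 (-0.50 ± 0.18). Cyp26b1 had 291.1, 304.1, 153.9 and 176.2 in adult cells, against 1336, 1581 and 2421 in progenitor cells (-2.87 ± 0.26, adjusted p = 9.23e-08). In adult cells it was thus below every progenitor array by a wide gap.

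**Figure D3:**
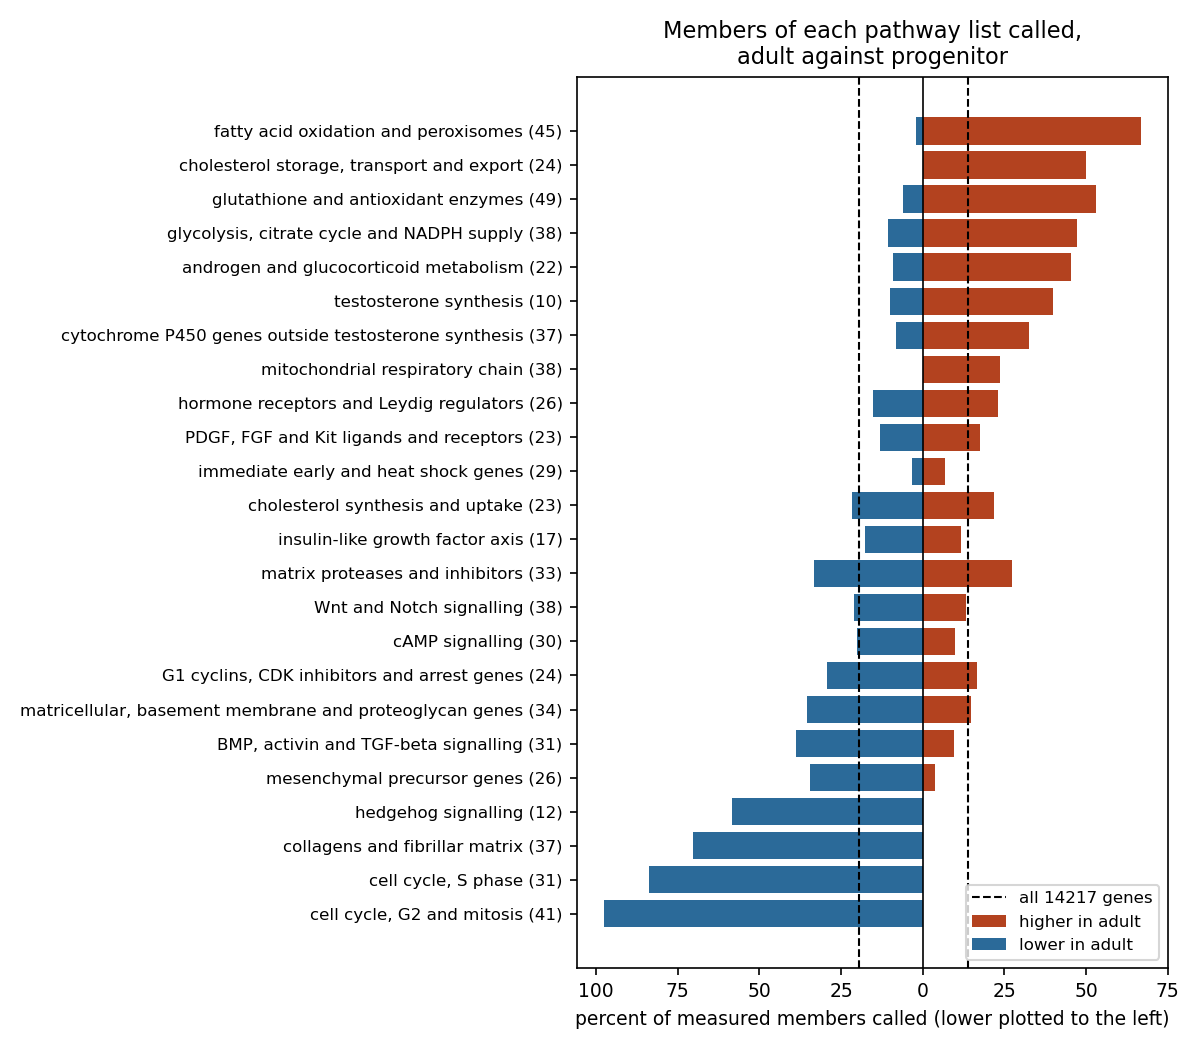
Percent of the measured members (number in brackets) of each pathway list called higher (right) or lower (left) in adult than in progenitor cells, with dashed lines at the shares over all 14217 genes, 13.9% and 19.6%. Fatty acid oxidation, antioxidant and cholesterol storage lists lie at the top, and collagens and the 2 replicative cell cycle lists at the bottom.

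Nearly all mitotic genes measured were lower in adult cells. Cdk1, the kinase that starts mitosis, had 47.03, 36.19, 38.93 and 39.14 in adult cells, against 377, 434.2 and 369.2 in progenitor cells (-2.86 ± 0.18, adjusted p = 8.25e-10). Mki67, the proliferation marker Ki-67, had 43.17, 30.34, 27.49 and 27.67 in adult cells, against 422.1, 387.6 and 414.2 in progenitor cells (-3.15 ± 0.25). Kif20a, a motor of cell division, had 40, 35.8, 40.15 and 31.65 in adult cells, against 302.1, 315.1 and 370.1 in progenitor cells (-2.70 ± 0.15), and Racgap1, a cytokinesis gene, fell by 2.65 ± 0.16. The groups of these genes lay far apart, with adult arrays close to each other.

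Of 41 measured genes of G2 and mitosis 40 fell, against 19.6% of all genes, at a median log2 change of -2.28. The other one was Aurka, the spindle pole kinase, at 55.3 ± 10.3 in adult and 51.8 ± 9.51 in progenitor cells (SD; 0.07 ± 0.15, adjusted p = 0.826). Of 31 measured S phase genes 26 fell (83.9%, against 19.6% of all genes) at a median of -1.02, and 20 did after median centring. Among them, Rrm1, a ribonucleotide reductase subunit, fell by 1.58 ± 0.16, the thymidine kinase gene Tk1 by 1.80 ± 0.20 and the replication helicase gene Mcm6 by 1.90 ± 0.22. Without progenitor replicate 3, 39 mitotic and 26 S phase genes fell. In immature cells Cdk1 averaged 238, Mki67 265 and Kif20a 181, each between the adult and progenitor means.

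Genes of the G1 decision included both rises and falls. Ccnd1, the G1 cyclin gene, had 188.1, 138.6, 115.2 and 120.9 in adult cells, against 45.89, 43.8 and 72.94 in progenitor cells, higher on every adult array (1.16 ± 0.22, adjusted p = 0.00045). Cdkn1c, an inhibitor of G1 kinases, had 40.56, 45.48, 33.4 and 35.39 in adult cells, against 662.6, 593.6 and 789.7 in progenitor cells (-3.67 ± 0.29, adjusted p = 1.49e-08). Rbl1 fell by 1.77 ± 0.21 and Cdkn2d by 1.0 ± 0.15. In that list of 24, 4 rose (16.7%) and 7 fell (29.2%), against 13.9% and 19.6% of all genes. Leukocyte marker sums were lower in adult arrays too, 2033 to 5084 against 10165 to 12478 in progenitor arrays, and their part in the cell cycle change was not tested.

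The promoters of 4 of these cell cycle genes are shown because sequence elements of cell cycle promoters are well described. Each is the 250 bases before the RefSeq start of the gene in the rat build GRCr8, 5′ to 3′ on the gene's strand. Capitals mark TTTGAA (the core of the cell cycle homology region), CCAAT (bound by NF-Y) and GCGGGAA (an E2F-type site), each also as its reverse complement, where TTTGAA and CCAAT may overlap. Cdk1 lies at chr20:19265043-19265292 on the plus strand, Mki67 at chr1:199952594-199952843 on the minus strand, Kif20a at chr18:26504172-26504421 on the plus strand and Rrm1 at chr1:166235654-166235903 on the plus strand.
Cdk1: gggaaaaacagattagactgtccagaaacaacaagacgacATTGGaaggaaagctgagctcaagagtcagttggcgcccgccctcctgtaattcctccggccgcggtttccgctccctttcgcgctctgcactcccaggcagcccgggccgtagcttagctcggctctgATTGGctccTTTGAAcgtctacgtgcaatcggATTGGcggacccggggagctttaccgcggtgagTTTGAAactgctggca
Mki67: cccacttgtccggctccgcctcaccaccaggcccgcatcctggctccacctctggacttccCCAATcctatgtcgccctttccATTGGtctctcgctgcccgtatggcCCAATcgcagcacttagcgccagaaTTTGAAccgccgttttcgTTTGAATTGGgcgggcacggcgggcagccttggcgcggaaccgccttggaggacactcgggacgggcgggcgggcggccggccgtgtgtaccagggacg
Kif20a: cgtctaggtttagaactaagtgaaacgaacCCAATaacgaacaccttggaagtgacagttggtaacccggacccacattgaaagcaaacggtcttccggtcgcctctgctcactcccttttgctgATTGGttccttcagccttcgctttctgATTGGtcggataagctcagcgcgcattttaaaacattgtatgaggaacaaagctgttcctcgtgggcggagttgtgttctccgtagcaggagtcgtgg
Rrm1: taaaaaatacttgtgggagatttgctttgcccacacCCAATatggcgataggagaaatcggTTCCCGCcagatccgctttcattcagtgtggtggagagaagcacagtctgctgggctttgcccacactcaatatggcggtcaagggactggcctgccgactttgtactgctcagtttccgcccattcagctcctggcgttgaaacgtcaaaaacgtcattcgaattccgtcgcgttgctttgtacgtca

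The Cdk1 window holds 5 matches, with TTTGAA at -72 and -16 from the start and CCAAT in reverse at -210, -81 and -49. The Mki67 window holds 6, with TTTGAA at -117 and -99. Kif20a has 3 CCAAT matches and no TTTGAA in these letters, and Rrm1 has CCAAT at -214 and GCGGGAA in reverse at -189. Promoters of Ccnb1, Mcm6 and Tk1 were looked up too but are not shown. Ccnb1 and Mcm6 each held 2 matches, all of CCAAT, and Tk1 held no match. Of the 41 measured mitotic genes, 36 had a promoter in the RefSeq table, and TTTGAA stood in 18 of them (50%), against 16% of all 27457 promoters. CCAAT stood in 28 (77.8%), against 34.3%, and GCGGGAA in 0, against 3.6%. Of the S phase genes 27 had a promoter, with TTTGAA in 1 (3.7%), CCAAT in 14 (51.9%) and GCGGGAA in 8 (29.6%). A match is a stretch of letters and was not tested as a binding site.

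**Figure D4:**
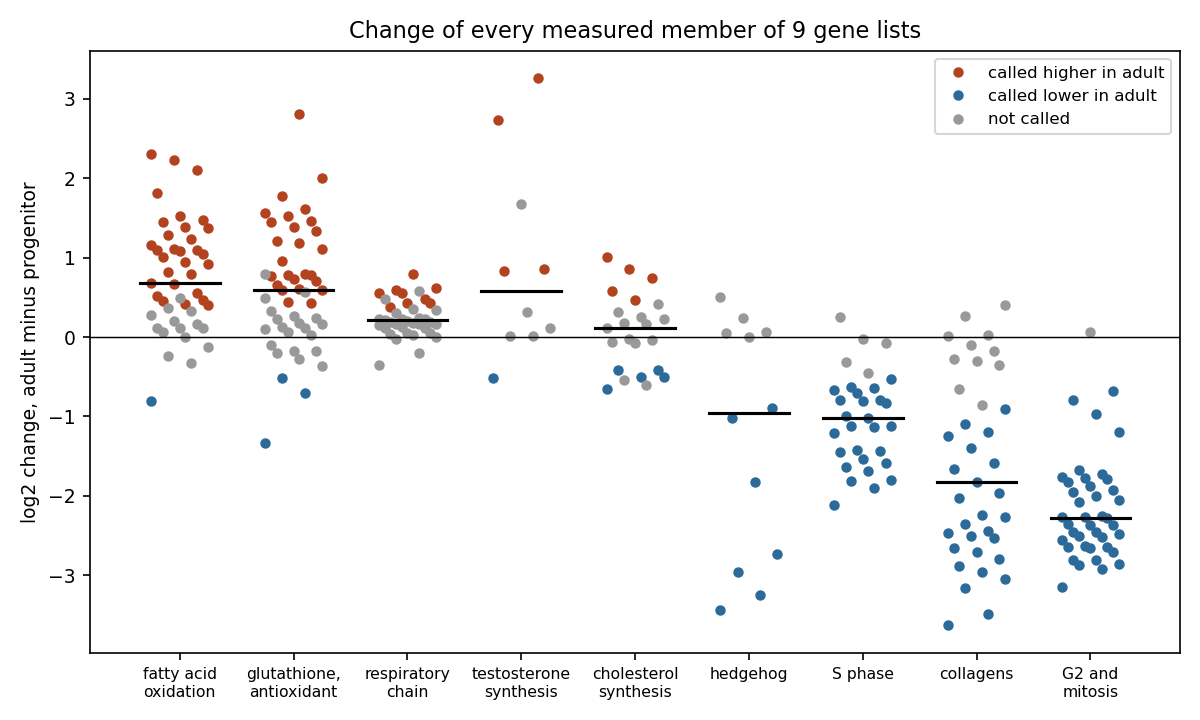
Log2 change, adult minus progenitor, of every measured member of 9 gene lists, 1 point per gene, coloured by call, with a black bar at the list's median. The medians are 0.68 for fatty acid oxidation, 0.21 for the respiratory chain, -1.83 for collagens and -2.28 for G2 and mitosis.

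Matrix genes were lower in adult cells. Emilin1, an elastic fibre protein, had 2.901, 11.11, 3.148 and 3.069 in adult cells, against 229.4, 214.3 and 211.3 in progenitor cells (-3.49 ± 0.24, adjusted p = 2.32e-09). Col5a1, which starts collagen fibrils, averaged 70.9 ± 32.4 in adult and 625 ± 71.2 in progenitor cells (SD; -2.96 ± 0.26), the fibrillin gene Fbn1 176 ± 23.4 and 1193 ± 168 (-2.66 ± 0.27), and the main fibrillar collagen genes Col1a1 and Col3a1 fell by 2.53 ± 0.38 and 2.02 ± 0.25. Of 37 measured collagen and fibrillar genes 26 fell (70.3%) and none rose, against 19.6% and 13.9% of all genes, with a median of -1.83. Pcolce, which helps trim procollagen, is an example that did not pass (2725 ± 441 in adult and 2043 ± 81.7 in progenitor cells, SD; adjusted p = 0.115). The counts were 0 and 26 after quantile normalization and 1 and 26 after median centring.

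Postn, the matricellular protein periostin, had 22.72, 16.93, 3.867 and 4.717 in adult cells, against 1161, 1324 and 806.9 in progenitor cells (-5.34 ± 0.41, adjusted p = 7.53e-09). Basement membrane genes also fell, Lamb1 by 2.67 ± 0.19 and Nid2 by 2.97 ± 0.23. Of the 34 genes of the matricellular and basement membrane list, 12 fell (35.3%) and 5 rose (14.7%), against 19.6% and 13.9% of all genes. The 5 include Spp1, osteopontin, at 347 ± 141 in adult and 30.1 ± 6.16 in progenitor cells (SD, log2 change 2.90 ± 0.30). Proteases and inhibitors split, with 9 of 33 higher (27.3%) and 11 lower (33.3%), against 13.9% and 19.6% of all genes. The aggrecan-cleaving protease gene Adamts9 had 37.5, 26.94, 32.63 and 30.02 in adult cells, against 631.9, 646 and 686.6 in progenitor cells (-3.82 ± 0.26), and the gelatinase gene Mmp2 fell by 2.50 ± 0.23. Smooth muscle marker sums overlapped between the groups. Of the 15 members 3 were lower (20%, near the 19.6% of all genes), Tpm2 (-2.09 ± 0.46), Cald1 (-1.75 ± 0.30) and Myl9 (-0.63 ± 0.21).

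The receiving side of hedgehog signalling was lower in adult cells. Smo, the membrane protein that passes the signal on, had 13.28, 15.62, 16.85 and 20.62 in adult cells, against 186.8, 231.6 and 182.7 in progenitor cells (-2.73 ± 0.16, adjusted p = 2.98e-10). Gli1, a transcription factor and target of the pathway, had 20.51, 32.44, 3.709 and 4.16 in adult cells, against 297, 237.9 and 368.8 in progenitor cells (-3.43 ± 0.28). Boc, a co-receptor, averaged 11.9 ± 6.61 in adult and 197 ± 27.5 in progenitor cells (SD; -2.96 ± 0.26), and Hhip, an inhibitor and target, fell by 1.82 ± 0.21. No adult signal of Smo, Gli1 or Boc was above 32.44, close to the pseudocount of 16, which compresses their fold changes. Of 12 measured members 7 fell (58.3%) and none rose, against 19.6% and 13.9% of all genes, with a median of -0.95. The ligand gene Dhh, which Sertoli cells make, was dim and overlapped (35 ± 9.26 in adult and 33.4 ± 13.7 in progenitor cells, SD; adjusted p = 0.911).

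Of 17 measured genes of the insulin-like growth factor axis 2 rose (11.8%) and 3 fell (17.6%), near the shares of all genes (13.9% and 19.6%). Igfbp5 and Igfbp6, which bind insulin-like growth factors, averaged 62.3 ± 34.1 and 238 ± 134 in adult cells, against 793 ± 73 and 1525 ± 116 in progenitor cells (SD), with log2 changes of -3.45 ± 0.28 and -2.76 ± 0.36. Igf2r, the clearing receptor, fell by 2.67 ± 0.30. Igf1 had 2538, 2467, 3141 and 2461 in adult cells, against 1721, 1480 and 2061 in progenitor cells, which did not overlap. Its log2 change of 0.60 ± 0.23 missed the threshold (adjusted p = 0.0715) and passed it in several alternatives, among them the fit of the 7 arrays (adjusted p = 0.0203).

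In the list of PDGF, FGF, Kit and related ligands and receptors 4 of 23 rose (17.4%) and 3 fell (13%), also near those shares. Kitlg, the ligand of Kit, averaged 114 ± 31.2 in adult and 598 ± 164 in progenitor cells (SD; -2.22 ± 0.33), Egfr fell by 2.12 ± 0.29 and the leukemia inhibitory factor receptor gene Lifr rose by 0.96 ± 0.15. Pdgfra, a receptor of early Leydig cells, was at 1865 ± 191 in adult and 1953 ± 261 in progenitor cells (SD; -0.06 ± 0.21, adjusted p = 0.887; positive after median centring). The Wnt antagonist gene Sfrp1 had 95.69, 119.2, 79.49 and 68.54 in adult cells, against 1102, 1229 and 561.1 in progenitor cells (-3.15 ± 0.30), and Sfrp4 fell by 2.03 ± 0.25, while the ligand gene Wnt5b rose by 1.55 ± 0.23. In the Wnt and Notch list 5 of 38 rose (13.2%) and 8 fell (21.1%), near the 13.9% and 19.6% of all genes.

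In the BMP and TGF-beta list 3 of 31 rose (9.7%) and 12 fell (38.7%), against 13.9% and 19.6% of all genes, with a median of -0.37. Fstl1, a secreted binder of BMP ligands, had 192.9, 112.6, 75.52 and 97.74 in adult cells, against 1064, 954.2 and 876.3 in progenitor cells (-2.92 ± 0.25). Bmp4 fell by 1.57 ± 0.22 and Bmp6 rose by 2.02 ± 0.29. Of 26 measured mesenchymal precursor genes 9 fell (34.6%) and 1 rose (3.8%), against 19.6% and 13.9% of all genes. The homeobox gene Prrx2 fell by 2.47 ± 0.24 and the transcription factor gene Tcf21, a marker of testis stroma, by 1.75 ± 0.27. The 1 that rose was Vcam1, a cell adhesion gene, at 2409, 1721, 3041 and 2338 in adult cells, against 860.9, 597.8 and 694 in progenitor cells (1.69 ± 0.21, adjusted p = 3.15e-06).

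The rises and falls of largest size mixed genes of Leydig metabolism with genes of other cells. Hp, haptoglobin, the plasma protein that binds hemoglobin, had 4767, 4148, 6530 and 4653 in adult cells, against 68.92, 68.57 and 176.7 in progenitor cells (5.48 ± 0.29, adjusted p = 1.1e-10). Hpx, which binds heme, had 455.6, 491.3, 405.6 and 400.5 in adult cells, against 10.23, 16.06 and 15.74 in progenitor cells (3.92 ± 0.26). The hepatocyte marker list includes Hp but not Hpx. Its other 17 measured members summed to 177.9 to 254.3 in adult and 123.3 to 185.3 in progenitor arrays. Of all 18 members, 12 were under a signal of 16 in both groups. Fgg (0.94 ± 0.19) and Itih3 (1.09 ± 0.23) were the only others of that list called. Further large rises were Urah (4.06 ± 0.18), an enzyme of urate breakdown, the nicotinic receptor subunit gene Chrna4 (3.97 ± 0.25) and the prostaglandin D synthase gene Ptgds (3.87 ± 0.21).

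Among the 14 largest rises, 4 belong to sperm. Odf1, a sperm tail protein, had 1865, 940.1, 369.7 and 807.3 in adult cells, against 4.494, 11.7 and 23.44 in progenitor cells (4.95 ± 0.35, adjusted p = 2.86e-09). Oaz3 (4.11 ± 0.41), the protamine gene Prm1 (4.01 ± 0.58) and Smcp (3.91 ± 0.44) are also genes of spermatids, and Spata20 of the marker list rose by 2.42 ± 0.21. In the other direction, the meiotic gene Sycp3 fell (-1.89 ± 0.21), as did Odf2 (-0.47 ± 0.13), whose sign turned when all its probe sets were averaged. The germ cell sums of 2527 to 6466 in adult and 592 to 891 in progenitor arrays include Odf1 and Spata20, so they are not separate from these rises. The part of germ cells in other rises was not tested.

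Among the 14 largest falls, several are genes of lymphocytes and mast cells. Gzma, a granzyme of killer cells, had 34.58, 36.63, 19.07 and 21.21 in adult cells, against 1013, 1193 and 1034 in progenitor cells (-4.66 ± 0.31, adjusted p = 1.3e-09). Cd7 (-4.58 ± 0.30), the chemokine gene Xcl1 (-4.51 ± 0.35), Nkg7 (-4.28 ± 0.33), Cd96 (-3.99 ± 0.32) and Itgax (-4.10 ± 0.33) are other leukocyte genes, and Mcpt9 (-4.04 ± 0.27) encodes a mast cell protease. Ptprc, the pan-leukocyte marker CD45, averaged 55.4 ± 24.7 in adult and 371 ± 42.8 in progenitor cells (SD; -2.50 ± 0.30). The macrophage genes Cd163 (0.66 ± 0.16) and Cd14 (0.69 ± 0.15) rose, but most macrophage genes were not called. Hbb, hemoglobin beta, whose copies cannot be told apart, averaged 542 ± 198 in adult and 4153 ± 925 in progenitor cells (SD; -2.97 ± 0.29), and Alas2 of red cell heme synthesis fell by 3.08 ± 0.24.

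The other large falls were of mixed kinds. Cpa1, a carboxypeptidase of the pancreas, had 6.7, 5.059, 2.892 and 2.43 in adult cells, against 1989, 2549 and 1879 in progenitor cells, the largest fall of all named genes (-6.72 ± 0.48, adjusted p = 3.16e-09). The other 12 measured acinar markers summed to 59.1 to 83.3 in adult and 72.8 to 133.2 in progenitor arrays, and Pnliprp2 alone among them was called, at signals under 16. Mest, a hydrolase-like gene of growing tissue, had 21.1, 1.181, 0.9496 and 8.145 in adult cells, against 1200, 1687 and 766.7 in progenitor cells (-5.70 ± 0.45). The amino acid transporter gene Slc38a4 (-4.44 ± 0.23), the lipoxygenase gene Alox15, which some leukocytes express (-4.33 ± 0.30), the zinc finger gene Plagl1 (-4.04 ± 0.31) and Wfdc1 (-3.85 ± 0.28) followed.

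**Figure D5:**
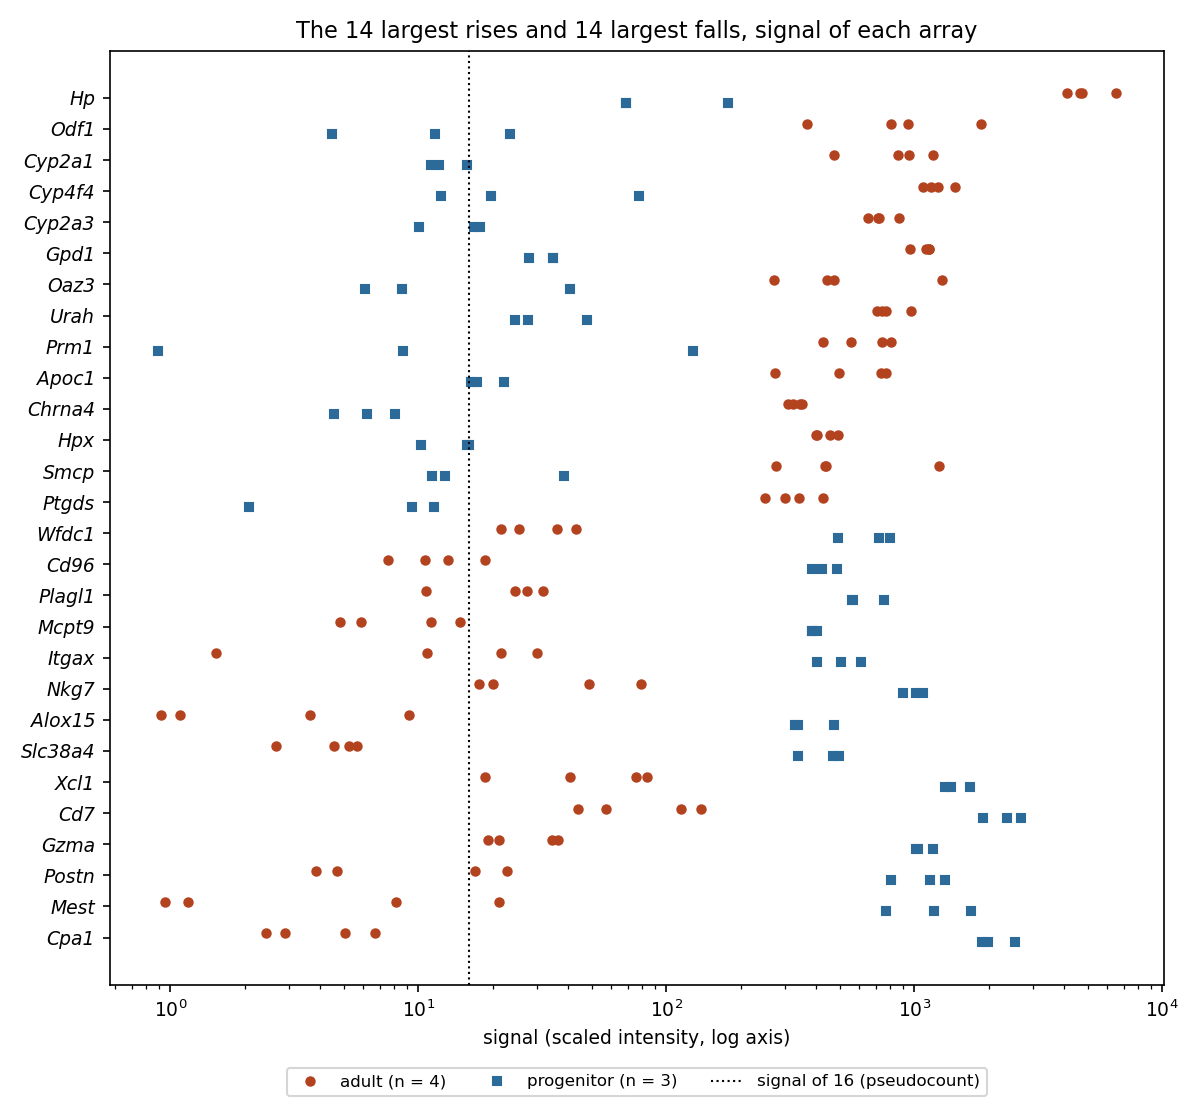
Signal (log axis) of the 14 largest rises (upper rows) and 14 largest falls (lower rows), adult arrays as circles above progenitor arrays as squares, with a dotted line at a signal of 16. Only genes whose groups do not overlap were eligible. Hp is at 4148 to 6530 in adult arrays and Cpa1 at 1879 to 2549 in progenitor arrays.

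Of 13 measured Sertoli markers 3 were higher and 3 lower (23.1% each, against 13.9% and 19.6% of all genes). Aard fell (67.8 ± 33.9 in adult and 845 ± 133 in progenitor cells, SD; -3.45 ± 0.41), as did Inhbb and the protease gene Ctsl (-0.80 ± 0.16), and Nr0b1, Clu (0.90 ± 0.19) and Cldn11 (1.97 ± 0.27) rose. Of these, Leydig cells also express Nr0b1. Of 17 endothelial markers, Plvap (-1.19 ± 0.18) and Ramp2 (-1.11 ± 0.23) fell (11.8%, against 19.6% of all genes). The defining Pecam1 was not called (96.9 ± 22.3 in adult and 67.5 ± 3.56 in progenitor cells, SD, adjusted p = 0.197), though its groups did not overlap. It was called higher after quantile normalization (0.61, adjusted p = 0.0451) and after median centring (0.59, adjusted p = 0.0472). In the epididymal and accessory gland list Cst8 rose (1.26 ± 0.21) and Svs6 fell at signals under 20 (-0.37 ± 0.13). Svs5 was bright and overlapped, at 2727 ± 451 in adult and 2984 ± 598 in progenitor cells (SD; log2 change -0.12, adjusted p = 0.731). After quantile normalization it was called lower (-0.36, adjusted p = 0.0302), and after median centring the value was positive. Of 29 measured immediate early and heat shock genes, which respond to handling stress, 26 were not called. Those that rose were 2 (6.9%, against 13.9% of all genes), Ier3 (1.72 ± 0.30) and Dusp6 (0.84 ± 0.26). Only 1 fell (3.4%, against 19.6%), Nr4a2 (-1.18 ± 0.40). After quantile normalization 2 rose and 5 fell. The immediate early gene Nr4a1, counted above with the receptors, fell (-1.33 ± 0.39).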

How the data were processed

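Total RNA was turned into biotin-labelled cRNA from 6 ug per sample, per the labels' protocols, and hybridised to Affymetrix rat arrays. The submitters' processing notes name MAS5 and GCOS as the tools behind the deposited signal intensities, which are linear. The deposited table was already scaled to a common 2% trimmed mean. Detection calls were not used. Over the 7 arrays the median signal was 21.6 to 32.7, and 34.2% to 43.9% of their probe sets were under 16. The number of arrays limits the precision.

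Of 31099 probe sets, 57 controls were left out. In the platform annotation 20826 probe sets have 1 symbol, 436 several and 9780 none, and 20760 of the 20826 matched a RefSeq gene of GRCr8 (1 symbol updated). The probe set with the highest mean over all arrays stood for a gene, which gave 14217 genes. Log2(signal + 16) values of all 19 arrays were fitted in limma 3.58.1 under R 4.3.3, with 5 group means, eBayes and trend on. Tests were two-sided with Benjamini-Hochberg adjustment over 31042 probe sets, and each adjusted p comes from this limma fit unless another is named. Errors of log2 changes are standard errors. On simulated data for this comparison over 31042 probe sets, the fit recovered 71% of 100 probe sets changed by 1 on the log2 scale and 99% of 100 changed by 2, with 10 false calls. The noise was independent and normal. No other probe sets were changed, while 24.4% of probe sets were called in the real comparison. The adjustment depends on that share, so these rates need not hold for the real data. Changed probe sets were drawn only from those at or above the median level, so recovery of dimmer ones was not tried.

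The 34 gene lists (24 of pathways, 10 of cell type markers; 852 of 955 symbols measured) and the rule for named genes were chosen with earlier results of these data known. The rule took the 14 largest rises and 14 largest falls among called genes with no overlap and a bright group at or above the median probe set, with predicted genes passed over. It added the 3 called members of each pathway list and 2 of each marker list with the smallest adjusted p, and a set of steroid, receptor and growth genes named whatever their result. That gave 122 genes. The 51 further genes were chosen after their values were seen: Amacr, Apoe, Aurka, Cat, Cd14, Cd163, Cldn11, Clu, Col1a1, Col3a1, Ctsl, Cyb5b, Cyp26b1, Cyp2d4, Cyp7b1, Dhh, Dlk1, Esr1, Fasn, Folr2, Gclm, Gpx7, Grb10, Hhip, Hsd17b12, Igf2, Inhba, Inhbb, Itih3, Ldha, Meg3, Myl9, Ndn, Npc2, Nr1h4, Nr3c2, Nr4a1, Odf2, Pcolce, Pecam1, Por, Prdx4, Prf1, Ptprc, Rgs2, Slc22a18, Slc22a3, Spp1, Srd5a3, Svs5 and Sycp3. Odf2 was the 1 named gene with probe sets called in opposite directions. Some genes named in the rule, Srd5a1 among them, were not analysed here. The alternatives were quantile normalization, median centring, pseudocounts of 1 and 64, a filter on the dimmest 40%, trend off, weights for array quality, the 7 arrays alone, 15 arrays without the immature group, a block for replicate number, a minimum of 2-fold, an adjusted p under 0.01, averaging the probe sets of each gene, and dropping single arrays. A fit of the 7 arrays less progenitor replicate 3 was chosen after seeing the data. Promoters came from a RefSeq table and were searched in Python 3.11.15 with pandas 2.3.3, and matplotlib 3.10.9 drew the plots.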

Additional observations from a re-analysis of the deposited data

Results flagged for a closer look

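In the 4 adult arrays, 13 of the 173 named genes had 1 array far from the other 3, by Dixon's criterion, which chance passes in about 1 of 20 groups. The 3 progenitor arrays are too few for it. Adult replicate 3 was the far array for 8 of the 13 genes, and it was the highest for 7 of them. Its signal was 3665 for Tspo (2755 to 2808 on the other adult arrays), 5016 for Hsd11b1 (3338 to 3571), 2150 for Pdgfra (1749 to 1793) and 3141 for Igf1 (2461 to 2538). It was also the highest for the dim genes Pnliprp2 (9.452), Svs6 (9.478) and Cyp7b1 (7.782). For Hbb it was the lowest, at 246.9, with 609 to 662.8 on the others. Adult replicate 2 stood apart for Gpd1 (958.8, others 1119 to 1148), Emilin1 (11.11, others 2.901 to 3.148) and Aurka (39.95, others 58.99 to 61.82). Adult replicate 1 was highest for the sperm gene Smcp (1260, others 277.4 to 441.8) and for Dhh (48.86, others 29.7 to 31.77).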

How the results depend on the processing

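The count of probe sets higher in adult cells was 2996 and of those lower 4581. Both stayed within 1.5 times under the alternatives tried except median centring (4662 higher, 2757 lower) and the 2-fold minimum (1131 higher, 1654 lower). Leaving out 1 array gave 2542 to 2737 higher and 3832 to 4540 lower. Adult and progenitor replicates share numbers. Deviations of same-numbered arrays correlated at 0.04, -0.076 and 0.054, and those of differently numbered arrays at -0.178 to 0.157. With so few arrays this cannot settle whether the numbers pair them. With the replicate block 2893 were higher and 4334 lower. Of the 157 named genes called, 135 kept their call in each alternative apart from the 2 stricter thresholds, and 22 lost it in at least 1. Dropping single arrays ended 5, 8, 5 and 8 of these calls for adult replicates 1 to 4, and 9, 11 and 10 for progenitor replicates 1 to 3. The cause was not tested. Odf2 alone among the called genes changed sign, with a log2 change of 0.67 when its probe sets were averaged. Genes that were not called changed sign more easily. After quantile normalization Hsd3b1 was at -0.12 and Lhcgr at -0.04, and after median centring Pdgfra was at 0.11 and Svs5 at 0.05. Kit was at -0.27 with array quality weights and at -0.35 without progenitor replicate 3. Leaving out 1 array gave -0.25 to 0.15 for Hsd3b1, -0.13 to 0.28 for Cyp17a1, -0.17 to 0.03 for Pdgfra, -0.35 to 0.45 for Kit and -0.15 to 0.26 for Dhh. Of 1428 recomputed list counts, 1255 stayed within 1.5 times. Genes near a signal of 16 have log2 changes set largely by the pseudocount.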

Other observations

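The 3 lists in this section were put together after values were seen, so their counts are a description and no test. Genes known to be expressed from 1 parental copy in the mouse (imprinted genes) were often lower in adult cells. Of 40 measured, 16 were lower and 2 higher, against 19.6% and 13.9% of all genes, and without progenitor replicate 3 the counts were 13 and 2. The list's summed signal was 9080 to 9624 in adult and 12310 to 15934 in progenitor arrays. Mest, Slc38a4, Plagl1, Cdkn1c and Igf2r, described above, are among the 16. Meg3, a noncoding RNA, had 198.7, 203, 179.4 and 158 in adult cells, against 1090, 1312 and 1071 in progenitor cells (log2 change -2.55 ± 0.33, adjusted p = 5.63e-06). Its neighbour Dlk1, a Notch-like ligand of immature cells, averaged 75.6 ± 15.5 in adult and 348 ± 80.9 in progenitor cells (SD; -1.98 ± 0.34), and the growth suppressor gene Ndn fell by 2.78 ± 0.31. The 2 higher genes were the organic cation transporter gene Slc22a3 (104 ± 19.1 in adult and 5.51 ± 2.83 in progenitor cells, SD; 2.48 ± 0.16) and Slc22a18 (0.54 ± 0.17). Igf2 (0.44 ± 0.21, adjusted p = 0.146) and Grb10 (-0.41 ± 0.17, adjusted p = 0.0859) were not called, but this depended on the settings. Igf2 was called higher after quantile normalization (adjusted p = 0.0293) and after median centring (adjusted p = 0.0373). Grb10 was called lower after quantile normalization (adjusted p = 0.012) and in the fit of the 7 arrays (adjusted p = 0.035), but not after median centring (adjusted p = 0.406).

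Of 32 measured genes of natural killer and cytotoxic lymphocytes, 27 were lower in adult cells and none higher, against 19.6% and 13.9% of all genes. Their median log2 change was -2.89, and the counts were the same without progenitor replicate 3. Their summed signal was 1848, 2629, 781 and 1020 in adult arrays, against 14819, 18295 and 16506 in progenitor arrays, which do not overlap. Prf1, the pore-forming protein of killer cells, had 23.73, 49.12, 11.92 and 9.659 in adult cells, against 404.7, 510.7 and 425.5 in progenitor cells (-3.64 ± 0.34). Of 15 measured macrophage genes, 12 were not called, 3 were higher (20%, against 13.9% of all genes: Cd163, Cd14 and the folate receptor gene Folr2, at 0.77 ± 0.17) and none lower. The macrophage list's median log2 change was 0.54. C1qa was not called (1.25 ± 0.74, adjusted p = 0.261), though its groups did not overlap. It had 179.5, 72.85, 49.4 and 86.14 in adult arrays, against 23.31, 20.94 and 41.46 in progenitor arrays. Lyz2, in contrast, was at -0.06 ± 0.31. The list's summed signal was 1605 to 3937 in adult and 1652 to 2544 in progenitor arrays, which overlap. Lyz2 and Cd74 are its brightest members, so the sum says little about the dimmer ones.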
